A study of Mus musculus with 305 samples.

Results

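The transcriptional response of the dorsal striatum to a first dose of heroin was read in 16 of the 51 dorsal striatum libraries of the series. The members were chosen by their labels alone: dorsal striatum (dStri) libraries of the groups SH and SS, 8 mice in each. Every gene that passed a filter on low counts was tested, 19492 genes in all.

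Both groups were wild-type male mice that had self-administered saline intravenously for 15 d and had then spent 30 d in withdrawal. SH mice next received a heroin challenge and SS mice a saline challenge, and each then went through a drug-seeking test of 2 h. Heroin was thus new to SH mice when the tissue was taken. The study collected bulk RNA from 6 brain regions of 51 mice, and the same challenge was also given to mice with a heroin history: HH mice (heroin intake, then heroin challenge) and HS mice (heroin intake, then saline challenge), 8 each. Strain and age are not given in the sources used here.

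The dorsal striatum is the input stage of the basal ganglia that takes part in action selection and habit. Most of its neurons are GABAergic projection neurons, which fall into a D1 class that makes dynorphin and substance P and a D2 class that makes enkephalin. Heroin acts through the mu opioid receptor (Oprm1), a Gi-coupled receptor found on these neurons and on the terminals that reach them, and opioids also raise striatal dopamine. Dopamine at D1 receptors raises cAMP, and cAMP, calcium and MAP kinase signals switch on immediate early genes.

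Per library, 24.78 to 47.18 M counts fell in genes in SH mice and 23.87 to 34.25 M in SS mice. No SH or SS library stood apart in rank correlation with the other dStri libraries (0.98 to 0.984 in SH and 0.981 to 0.984 in SS). Markers of striatal projection neurons bore out the label: their mean level was 8.73 to 9.21 log2 CPM (counts per 1000000) in SH and 8.86 to 9.26 in SS. Drd1, the D1 receptor, stood at 471 to 628 CPM in SH and 487 to 633 CPM in SS. Markers of cortical and hippocampal excitatory neurons did not stay low in every library. Their score, the mean log2 CPM of the list, was 4.46, 4.65 and 4.85 in SH mice 10, 27 and 19 and 3.23 in SH mouse 4. The remaining 4 SH libraries lay between 1.98 and 2.39. Among SS mice, mouse 22 had 3.29 and the other libraries 1.86 to 2.78. In bulk tissue, a change in how many cells of a type were sampled and a change in RNA per cell cannot be told apart. The p-values for group differences within a region set each difference against the spread between separate mice, by the mouse number in the labels.

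No gene passed an adjusted p of 0.05 with edgeR's quasi-likelihood test, where the smallest adjusted p was 0.27. At an unadjusted p under 0.05 stood 1077 genes, 5.53% of those tested: 696 higher in SH (3.57%) and 381 lower (1.95%). With upper-quartile scaling in place of TMM there were 1036 (5.32%), split into 478 higher (2.45%) and 558 lower (2.86%). Whatever their p, 9605 of the 19492 genes were higher in SH with TMM and 8101 with upper-quartile scaling. DESeq2 called 3 genes (0.0154%), namely Mfsd4a (DESeq2 adjusted p = 0.0329) as higher and Acer2 and Osmr (both 0.0486) as lower; limma-voom called 0. The SH and SS libraries did not overlap at all for 3 genes (0.0154%). These were picked for their separation out of 19492 genes, among which chance alone can separate some. Whether 3 is more than chance gives was not tested, so the ranges describe these genes and test nothing. Kdelr2, a receptor that returns proteins to the endoplasmic reticulum, had 19.4 to 21.4 CPM in SH and 15.9 to 19.2 CPM in SS. Ankmy1 had 0.0553 to 0.207 CPM in SH and 0.227 to 0.877 CPM in SS, and the gene model Gm43281 had 0.107 to 0.534 CPM in SH and 0.543 to 1.06 CPM in SS. With the excitatory marker score of each library as a covariate, 992 genes (5.09%) had an unadjusted p under 0.05, 447 higher (2.29%) and 545 lower (2.8%). Without the 3 SH libraries that scored over 4, there were 897 (4.4%), 429 higher (2.1%) and 468 lower (2.3%). With an adjusted p both counts were 0.

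On the lower side stood Acer2, the Golgi alkaline ceramidase that splits ceramide into sphingosine and a fatty acid (chr4:86874396-86934822, + strand, GRCm38). Its lowest, median and highest levels were 10.7, 13.9 and 17.0 CPM in SH, against 14.9, 19.8 and 30.6 CPM in SS. Only SH mouse 24 exceeded any SS library, and all 8 SH libraries lay below the SS mean. The log2 difference was -0.64 ± 0.143 (SE, edgeR adjusted p = 0.283). The 3 SH libraries richest in excitatory markers were also the lowest for Acer2 (10.7 to 11.2 CPM), and its level went with the score at r = -0.66 over 16 libraries. The difference was -0.51 with the score as covariate and -0.49 without those 3 libraries. SH minus SS was -0.81 in mouse set 1 (4 SH and 3 SS mice) and -0.50 in mouse set 2 (4 and 5). The sets are the 2 series of sample codes on the libraries of another region, BLA (basolateral amygdala), of the same mice. The dStri codes hold no such series, and what the sets mark is not given in the sources used here.

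Osmr, the receptor chain through which oncostatin M signals together with gp130 (chr15:6813577-6874969, - strand, GRCm38), had 5.01, 6.37 and 7.90 CPM (lowest, median, highest) in SH, against 7.36, 8.71 and 11.2 CPM in SS. The ranges met only at their edges, where SH mice 19 and 24 lay among the lowest SS libraries. The log2 difference was -0.50 ± 0.108 (edgeR adjusted p = 0.283), and it was -0.52 with the excitatory score as covariate. Il1r1, the signalling receptor for interleukin 1 (chr1:40225080-40317257, + strand, GRCm38), had 4.72, 6.35 and 8.33 CPM in SH, against 6.01, 8.80 and 12.2 CPM in SS. All 8 SH libraries lay below the SS mean, while the lower SS mice, such as 6 and 28, lay inside the SH range. The log2 difference was -0.47 ± 0.137 (adjusted p = 0.444), and -0.56 with the covariate.

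The 12 leading lower genes, those with the smallest p, also held Lcn2 and Pycard. Lcn2, a secreted iron-siderophore binding protein of the acute phase, had 7.68, 13.1 and 19.2 CPM in SH, against 11.1, 23.2 and 38.7 CPM in SS, a log2 difference of -0.81 ± 0.26 (edgeR adjusted p = 0.553). Pycard, the inflammasome adaptor ASC, had 1.02, 1.91 and 2.22 CPM in SH, against 1.97, 2.99 and 3.64 CPM in SS (-0.73 ± 0.204, adjusted p = 0.404). Both genes were lower than the SS mean in 8 of 8 SH libraries, and for both the groups overlapped. Tmem252, Ly6a (a surface antigen of endothelium in mouse brain), Map4k1 (a MAP kinase kinase kinase kinase of immune cells), Zfyve21, Tmem107 (a ciliary gate protein), Dph2 (diphthamide synthesis) and Prelid3a made up the rest. Their log2 differences ran from -0.84 to -0.20, with adjusted p between 0.345 and 0.553. With the excitatory score as covariate all 12 kept a negative difference with an unadjusted p under 0.05, and the median of the 12 was -0.52, against -0.48 without it. These 12 were picked by their p in this contrast, so the counts describe them and test nothing.

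**Figure D1:**
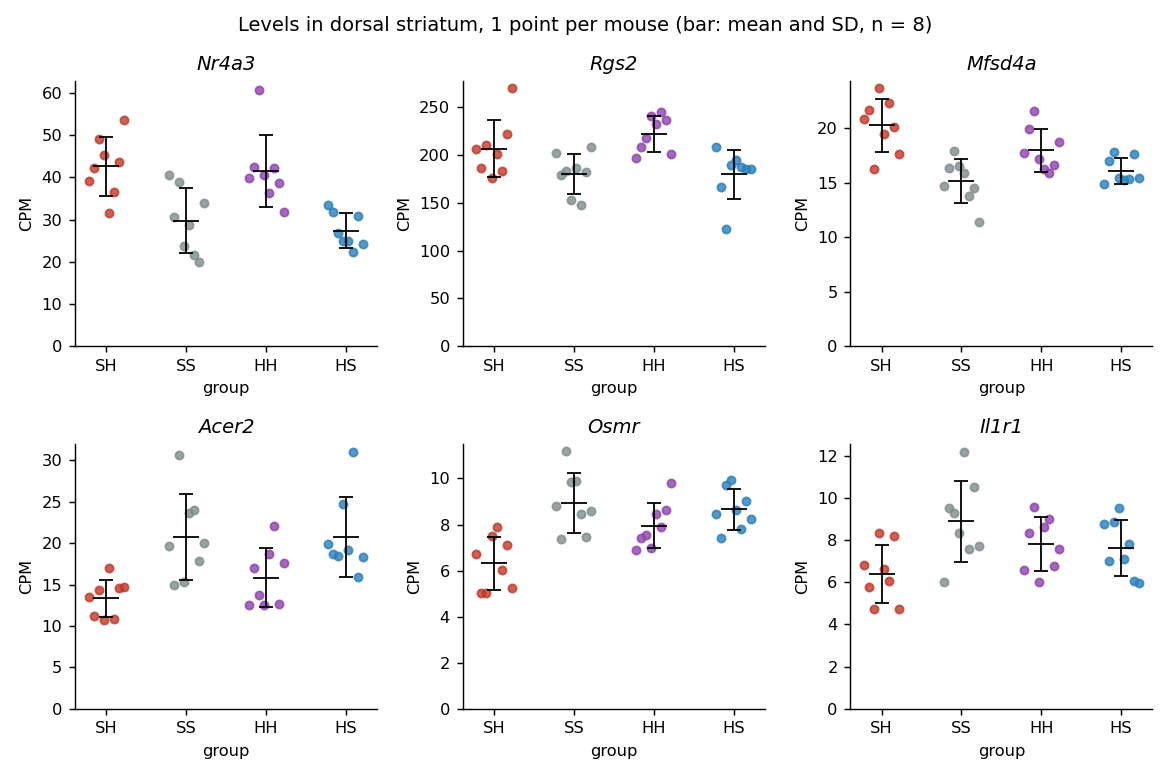
CPM of 6 genes in each dorsal striatum library (vertical axis, starting at 0) for SH, SS, HH and HS mice, with the mean and SD of 8 mice in black. Nr4a3 was higher than the SS mean in 8 of 8 SH libraries and Acer2, Osmr and Il1r1 were lower in 8 of 8; HH and HS libraries lie closer together for Osmr and Il1r1 than for Nr4a3.

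On the higher side, the gene with the smallest p was Mfsd4a, a membrane protein of the major facilitator superfamily (chr1:132022806-132068062, - strand, GRCm38). It had 16.2, 20.4 and 23.7 CPM in SH, against 11.4, 15.3 and 17.9 CPM in SS. The SH mice 17 and 30 lay within the SS range and the other 6 above it. The log2 difference was 0.42 ± 0.0839 (edgeR adjusted p = 0.27). Mfsd4a level went with the excitatory score at r = 0.76, and the difference was 0.28 with the score as covariate and 0.32 without the 3 libraries over 4.

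Most other leading higher genes moved with the excitatory markers. Vxn (vexin) had 9.30, 20.6 and 225.5 CPM in SH, against 11.4, 12.1 and 34.4 CPM in SS, and its log2 difference of 2.28 ± 0.512 (edgeR adjusted p = 0.283) was 0.04 without the 3 SH libraries over 4. Cck, the neuropeptide cholecystokinin, had 5.36, 10.9 and 64.03 CPM in SH, against 4.25, 5.37 and 13.8 CPM in SS, and its difference of 1.93 ± 0.466 was 0.27 without them. The high values sat in SH mice 10, 19 and 27 and, among SS mice, in mouse 22. All 12 leading higher genes had r between 0.60 and 0.98 with the score over the 16 libraries. Besides Mfsd4a, Vxn and Cck these were Ccn3, Kcnma1, Pgm2l1, Nxph3, Pter, B3galt2, Prkaa2 and the cortical transcription factors Fezf2 and Neurod6. Fezf2 and Neurod6 are themselves on the scored list. The 12 were picked as higher in SH, where the score was higher too (median 2.81, against 2.11 in SS). A positive r was thus partly built in, and these values describe the 12 and test nothing. With the covariate 5 of the 12 still had an unadjusted p under 0.05: Mfsd4a, Kcnma1, Pgm2l1, Nxph3 and Prkaa2.

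Kcnma1 and Prkaa2 varied less with the score. Kcnma1, the pore of the BK calcium-activated potassium channel, had 156.4, 172.8 and 187.5 CPM in SH, against 132.4, 137.98 and 165.5 CPM in SS, higher than the SS mean in 8 of 8 SH libraries. Its log2 difference was 0.26 ± 0.0619 (edgeR adjusted p = 0.283) and 0.18 with the covariate. Prkaa2, the alpha 2 catalytic subunit of the energy sensor AMPK, had 27.7, 32.4 and 37.4 CPM in SH, against 22.1, 27.3 and 30.1 CPM in SS. It too was above the SS mean in 8 of 8, with 0.30 ± 0.072 (adjusted p = 0.283) and 0.22 with the covariate.

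The excitatory markers themselves show how far this reached. Of 17 tested, 16 were higher in SH and 13 of these had an unadjusted p under 0.05, with a median log2 difference of 1.49, against 0.00 over all genes. Slc17a7, the vesicular glutamate transporter VGLUT1 of cortical neurons, had 7.14, 26.8 and 363 CPM in SH, against 5.75, 7.08 and 65.7 CPM in SS. In NAc, dissected from the same mice, Slc17a7 was also high in those animals: 168, 470 and 457 CPM in SH mice 10, 19 and 27 and 309 CPM in SS mouse 22. The other 12 mice had 3.37 to 25.0 CPM there. Camk2a and Lamp5, 2 of the listed markers that the striatum also makes, differed by 0.04 and -0.07. Without the 3 SH libraries over 4 the median of the list was 0.09 and 0 members had an unadjusted p under 0.05. Those libraries were picked by the mean of this same list, so its fall was built in and tests nothing. What part this marker difference has in the response of other genes was not tested beyond the covariate and the left-out libraries given beside each result.

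**Figure D2:**
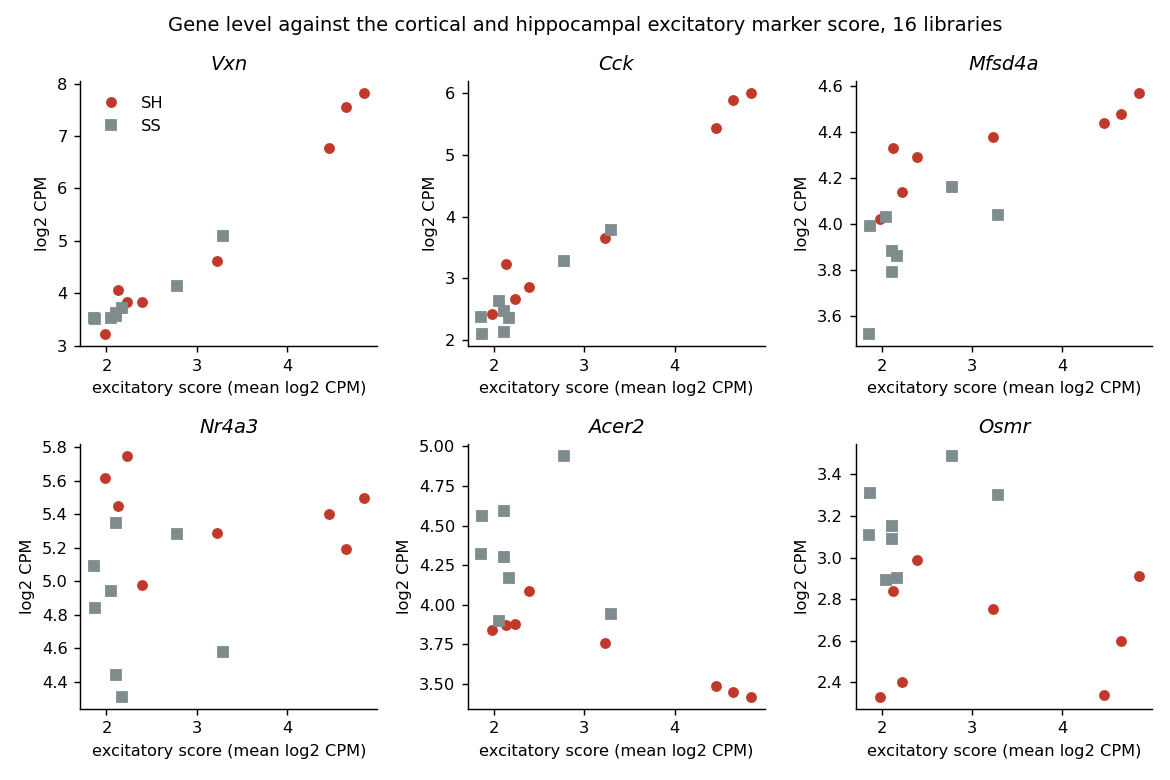
Log2 CPM of 6 genes (vertical axes, each with its own range) against the excitatory marker score of the library in mean log2 CPM (horizontal axis), for 8 SH (circles) and 8 SS (squares) mice. Vxn and Cck follow the score in both groups (r = 0.98 each), Mfsd4a less closely (r = 0.76) and Osmr had r = -0.27.

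Immediate early genes, transcribed within minutes of synaptic or MAP kinase activity, had a positive difference in 27 of 40 members, with a median of 0.09 beside 0.00 over all genes. An unadjusted p under 0.05 was reached by 5 higher members and 0 lower ones. Of these, Nr4a2 (an orphan nuclear receptor) and Bdnf (a neurotrophin) went with the excitatory markers: their differences of 3.16 and 2.56 were -0.10 and -0.30 with the covariate. The other 3, Nr4a3, Fosl2 and Dusp6, did not. With the covariate 23 of 40 members were positive, 5 of them at an unadjusted p under 0.05: Nr4a3, Fosl2, Dusp6, Egr2 and Nr4a1.

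Nr4a3, an orphan nuclear receptor of the NR4A family that is induced by cAMP and calcium (chr4:48045153-48086447, + strand, GRCm38), had 31.5, 43.0 and 53.6 CPM in SH, against 19.9, 29.6 and 40.6 CPM in SS. All 8 SH libraries lay above the SS mean, although SS mice 6, 15 and 32 lay inside the SH range. The log2 difference was 0.52 ± 0.129 (edgeR adjusted p = 0.314), with 0.49 under the covariate and 0.54 without the 3 libraries over 4. It was 0.25 in mouse set 1 and 0.69 in mouse set 2.

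Fosl2, the AP-1 subunit Fra-2, had 75.02, 91.66 and 135.8 CPM in SH, against 55.03, 67.62 and 96.41 CPM in SS, a log2 difference of 0.36 (unadjusted p = 0.00558 with edgeR). Dusp6, a phosphatase that switches off ERK, had 78.1, 85.5 and 132.5 CPM in SH, against 60.7, 72.3 and 86.2 CPM in SS, a difference of 0.33 (unadjusted p = 0.00742 with edgeR). For each of these, 8 of 8 SH libraries exceeded the SS mean and the groups overlapped. Nr4a1 (Nur77) had 132.6, 173.9 and 314.9 CPM in SH, against 92.9, 136.3 and 238.6 CPM in SS, and differed by 0.38 ± 0.189 (adjusted p = 0.90). Its difference was -0.01 in mouse set 1 and 0.67 in mouse set 2, so the pooled value rests on set 2.

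The classical activity markers overlapped widely between the groups. Fos had 14.1, 21.3 and 31.7 CPM in SH, against 5.97, 20.1 and 26.3 CPM in SS (0.16 ± 0.228, edgeR adjusted p = 0.965). Egr1 differed by 0.22 ± 0.147, Arc by 0.15 ± 0.167, Junb by 0.08 ± 0.118, Fosb by 0.05 ± 0.0976 and Npas4 by -0.21 ± 0.246, with adjusted p from 0.935 to 0.975. SS mice, like SH mice, went through the drug-seeking test before tissue was taken.

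The stretches before the annotated start of 4 genes are shown, picked from those whose difference had an unadjusted p under 0.05 and the same sign after both drug histories: Nr4a3, Dusp6 and Rgs2 on the higher side and Acer2 on the lower. Sequences are from RefSeq promoters on GRCm38.p6, 5′ to 3′ on the gene's strand, cut at the start of the annotated gene. Capitals mark TGACG, the core of the cAMP response element, on either strand.
Nr4a3: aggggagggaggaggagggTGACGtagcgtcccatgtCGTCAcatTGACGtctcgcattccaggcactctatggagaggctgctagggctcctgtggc
Dusp6: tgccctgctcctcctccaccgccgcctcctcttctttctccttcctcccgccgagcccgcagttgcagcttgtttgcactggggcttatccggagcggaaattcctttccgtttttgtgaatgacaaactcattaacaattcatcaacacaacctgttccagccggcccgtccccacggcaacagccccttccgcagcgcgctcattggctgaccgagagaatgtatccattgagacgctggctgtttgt
Rgs2: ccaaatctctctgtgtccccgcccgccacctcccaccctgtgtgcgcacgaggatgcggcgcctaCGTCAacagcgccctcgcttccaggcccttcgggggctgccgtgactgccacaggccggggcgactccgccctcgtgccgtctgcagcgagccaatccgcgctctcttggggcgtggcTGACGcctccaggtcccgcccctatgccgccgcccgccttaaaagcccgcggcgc
Acer2: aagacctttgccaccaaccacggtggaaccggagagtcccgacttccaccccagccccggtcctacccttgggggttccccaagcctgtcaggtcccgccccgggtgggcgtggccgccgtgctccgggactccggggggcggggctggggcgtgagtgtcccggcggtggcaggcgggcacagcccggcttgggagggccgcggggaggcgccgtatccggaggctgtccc

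These lie at chr4:48045055-48045152 (+ strand), chr10:99262981-99263230 (+), chr1:144004162-144004399 (-) and chr4:86874164-86874395 (+). In the full 250 bases before the RefSeq start, Nr4a3 held 4 matches of TGACG, 3 of them in the stretch shown, and Rgs2 held 2. Among 27025 promoters, 17.9% held at least 1 match, 4.02% at least 2 and 0.152% at least 4. Dusp6, Acer2 and Mfsd4a held none in these windows. Fosl2 and Osmr held none either, but their 250 bases lie wholly inside a longer annotated gene and are not the stretch before it. The palindrome TGACGTCA, which contains the core on each strand and so counts as 2 core matches, was present in the window of Dio2 only among these genes and in 1.62% of all. The AP-1 site TGANTCA was found in none of the 8 windows and in 6.87% of all. A match is a string of letters and not a measured site.

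No gene of opioid transmission passed. Of 8 peptide and receptor genes, 4 were higher in SH, 0 had an unadjusted p under 0.05, and the median was 0.03. With the excitatory score as covariate 3 were higher, 1 was lower at an unadjusted p under 0.05, and the median was -0.03. Without the 3 libraries over 4, 3 were higher and 1 was lower at that level (median -0.05). Without the 5 over 3 these were 4 and 1 (median -0.02). Oprm1, the receptor on which heroin's metabolites act, had 12.2, 19.3 and 21.4 CPM in SH, against 12.0, 15.9 and 22.1 CPM in SS. The ranges coincided, and the log2 difference was 0.20 ± 0.134 (edgeR adjusted p = 0.935) or 0.09 with the excitatory score as covariate. Penk (enkephalin) differed by -0.04 ± 0.0808, Pdyn (dynorphin) by 0.10 ± 0.166, Oprk1 (kappa receptor) by 0.08 ± 0.128 and Oprd1 (delta receptor) by -0.02 ± 0.0876.

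No gene of the projection neurons passed. Of 15 projection neuron markers, 2 were higher in SH, with a median of -0.05 and 0 at an unadjusted p under 0.05. With the excitatory covariate 11 of 15 were higher and the median was 0.04, so the direction of the list depended on that term. Drd1 had 471, 551 and 628 CPM in SH, against 487, 580 and 633 CPM in SS (-0.06 ± 0.06, edgeR adjusted p = 0.953). Drd2, the D2 receptor, had 208.2, 303.5 and 361.8 CPM in SH, against 241.7, 300.1 and 364.1 CPM in SS (-0.04 ± 0.0923, adjusted p = 0.978). Adora2a (an adenosine receptor of D2 neurons), Tac1 (substance P) and Ppp1r1b (DARPP-32) differed by -0.06, 0.01 and -0.06. Of 20 dopamine signalling genes tested, 6 were higher and 0 had an unadjusted p under 0.05 in either direction; 13 were higher without the 3 libraries over 4. Adcy5, the main adenylyl cyclase of these neurons, differed by -0.11 ± 0.069.

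Among other cAMP and G protein regulators, 29 of 41 were higher, 6 of them at an unadjusted p under 0.05 and 0 lower, with a median of 0.06. With upper-quartile scaling 26 were higher, 2 at an unadjusted p under 0.05, and 1 was lower at that level. With the covariate 26 were higher, Crem and Rgs2 at an unadjusted p under 0.05, and 1 was lower at that level (Arrb2). Rgs2, a GTPase-activating protein that shortens G protein signals (chr1:143999338-144004161, - strand, GRCm38), had 175.9, 203.5 and 269.6 CPM in SH, against 148.5, 182.4 and 207.8 CPM in SS. Its log2 difference was 0.20 ± 0.0854 (edgeR adjusted p = 0.84). Here the 3 SH libraries rich in excitatory markers were the lowest of their group (176 to 186 CPM). The difference was 0.33 with the covariate (unadjusted p = 0.000145) and 0.30 without those libraries. Crem, a cAMP-responsive transcription factor, had 13.6, 17.3 and 20.5 CPM in SH, against 9.74, 14.4 and 16.2 CPM in SS (0.28 ± 0.111, adjusted p = 0.756). Adcy1, a calmodulin-activated cyclase abundant in cortex, differed by 0.31 ± 0.0922, or 0.17 with the covariate.

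Glutamate and GABA receptor genes held few members with a small p. Of 27 glutamate receptor genes, 14 were higher (11 with upper-quartile scaling) and 3 had an unadjusted p under 0.05 (the kainate subunits Grik4 and Grik3 and the metabotropic Grm2), with a median of 0.00. With the covariate that number was 0. Of 21 GABA genes, 13 were higher (9 with upper-quartile scaling), 6 at an unadjusted p under 0.05, and 1 was lower at that level (Gabrd). With the covariate 2 of the higher members (Gabra5 and Gabrb2) had an unadjusted p under 0.05 and 0 lower ones, and without the 3 libraries over 4 that number was 0 in each direction. Gabra5, an extrasynaptic GABA-A subunit, had 22.2, 26.6 and 38.4 CPM in SH, against 19.7, 22.7 and 23.9 CPM in SS (0.36 ± 0.0955, edgeR adjusted p = 0.345). Its difference was 0.20 with the covariate and 0.12 without the 3 libraries over 4. Of 18 neuropeptide genes, 13 were higher and 5 had an unadjusted p under 0.05, and with the covariate 0 of these remained higher at that level. Without the 3 libraries over 4, 8 of the 18 were higher. Pcsk1, a prohormone convertase, differed by 0.47 ± 0.142, or 0.22 with the covariate. GABAergic interneuron markers were higher in 10 of 10, with a median of 0.11, in 8 of 10 with the covariate and in 6 of 10 without the 5 libraries that scored over 3. Pthlh, a peptide of striatal parvalbumin cells, had 3.35, 5.73 and 7.24 CPM in SH, against 3.33, 4.14 and 5.14 CPM in SS (0.41, unadjusted p = 0.00525 with edgeR), and 0.45 with the covariate.

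**Figure D3:**
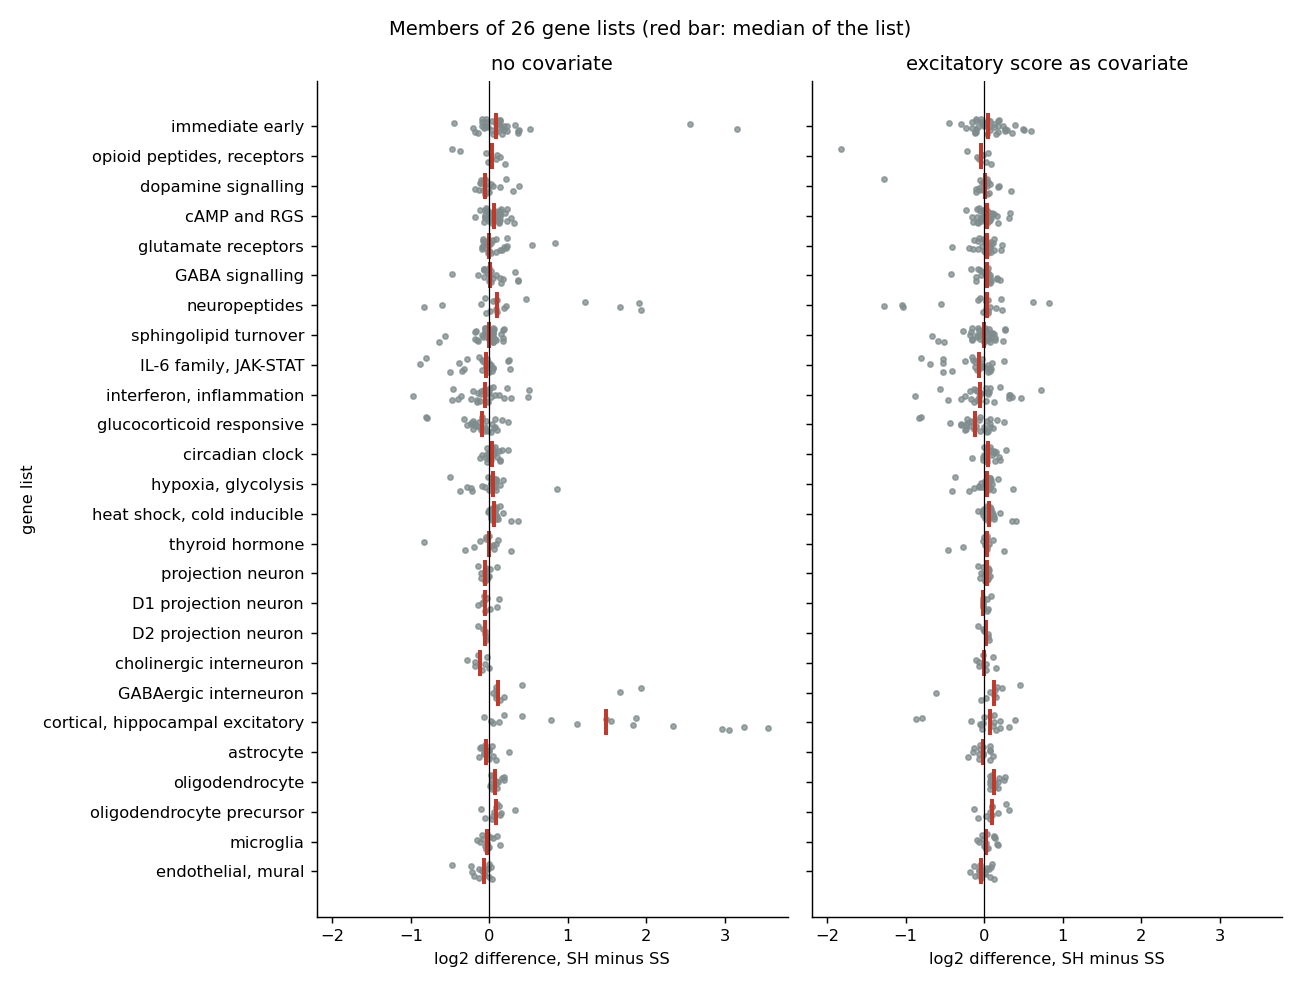
Log2 difference SH minus SS (horizontal axis) of each tested member (grey points) of 26 gene lists (vertical axis), fitted without a covariate on the left and with the excitatory marker score as covariate on the right; red bars are list medians. The median of the cortical and hippocampal list is 1.49 on the left and 0.07 on the right, and that of the immediate early genes 0.09 and 0.05. The covariate is the mean of the cortical and hippocampal list itself, so the fall of that list is built in.

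In the cytokine and stress hormone lists fewer members were higher than lower. Of 27 IL-6 family and JAK-STAT genes tested, 10 were higher, with 1 higher (Bcl6) and 3 lower (Osmr, Lcn2 and Il6ra) at an unadjusted p under 0.05, and a median of -0.04. Il6ra, the alpha chain of the IL-6 receptor, had 2.72, 4.61 and 5.53 CPM in SH, against 4.11, 5.60 and 6.87 CPM in SS (-0.35 ± 0.169, edgeR adjusted p = 0.889). Of 30 glucocorticoid-responsive genes, 8 were higher; 2 higher (Nr3c1, Bcl6) and 5 lower members (Tmem252, Lcn2, Xdh, Map3k6, Ddit4) had an unadjusted p under 0.05, and the median was -0.10. With the covariate 10 were higher and 4 of the lower ones remained at that level, and the median was -0.12. Xdh, xanthine dehydrogenase, had 13.5, 17.0 and 24.4 CPM in SH, against 17.9, 22.8 and 30.1 CPM in SS (-0.32 ± 0.112, adjusted p = 0.615). Fkbp5, the glucocorticoid receptor's own feedback gene, had 48.3, 59.6 and 66.8 CPM in SH, against 48.5, 58.3 and 62.9 CPM in SS, a difference of 0.02 ± 0.0666. Bcl6, Lcn2, Cebpd and Nfkbia are on more than 1 of these lists. Of 31 interferon and inflammation genes, 10 were higher, the median was -0.05, and Il1r1 was the one with an unadjusted p under 0.05 (3 members were lower at that level with upper-quartile scaling).

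Few lipid, hormone, clock and stress genes had a small p. Of 37 sphingolipid genes, 18 were higher, with a median of -0.01; besides Acer2, Cers6 (a ceramide synthase) had 79.5, 81.7 and 86.98 CPM in SH, against 62.8, 74.7 and 81.2 CPM in SS (0.15 ± 0.0573, edgeR adjusted p = 0.729). Dio2, the astrocytic and tanycytic deiodinase that makes active thyroid hormone, had 82.1, 92.8 and 141.1 CPM in SH, against 54.2, 78.5 and 109.6 CPM in SS, higher than the SS mean in 8 of 8. Its difference was 0.28 ± 0.13 (adjusted p = 0.863), while 6 of 13 thyroid hormone genes were higher. Clock, the partner of BMAL1, had 140.6, 148.6 and 162.5 CPM in SH, against 118.6, 140 and 148.3 CPM in SS (0.13 ± 0.0508, adjusted p = 0.738), with 14 of 22 clock genes higher. With the excitatory covariate 18 of the 22 were higher, 2 at an unadjusted p under 0.05. Without the 3 libraries over 4, 18 were higher, 4 at that level, and without the 5 over 3, 19 and 1. Vegfa, the vascular growth factor, had 48.9, 53.7 and 65.1 CPM in SH, against 47.1, 65.4 and 80.3 CPM in SS (-0.22 ± 0.0947, adjusted p = 0.829). Of 26 hypoxia and glycolysis genes 17 were higher, with 2 higher and 2 lower at an unadjusted p under 0.05. Heat shock and cold-inducible genes were higher in 25 of 26, by a median of 0.06, with 0 at an unadjusted p under 0.05. With upper-quartile scaling 20 of them were higher, with a median of 0.03. Of the 26, 21 were higher with the excitatory covariate and 18 without the 3 libraries over 4. Without the 5 libraries that scored over 3 for excitatory markers, where 452 genes (2.18%) had an unadjusted p under 0.05, 11 of the 26 were higher.

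Glial and vascular markers showed no member difference that passed. All 15 oligodendrocyte markers were higher by a median of 0.07. With upper-quartile scaling 12 of the 15 were higher, with a median of 0.05. All 15 were also higher with the covariate (median 0.13) and without the 3 libraries over 4 (median 0.16, 3 at an unadjusted p under 0.05). Without the 5 libraries over 3, which include SH mouse 4 with the highest oligodendrocyte score (7.06), 6 of 15 were higher. Of 15 astrocyte markers, 4 were higher (median -0.04). Of 15 microglial markers 4 were higher (median -0.03), or 10 without the 3 libraries over 4 and 6 without the 5 over 3. Of 17 endothelial and mural markers, 4 were higher (median -0.07), or 9 without the 3 libraries over 4 and 7 without the 5 over 3. Ly6c1 was lower at an unadjusted p under 0.05. Gfap, the astrocyte filament gene and a STAT3 target, had 12.9, 17.1 and 44.4 CPM in SH, against 12.2, 19.5 and 33.1 CPM in SS, a difference of 0.25 ± 0.219. Crhr2, on the list for ventral striatum, septum and amygdala, had 0.221, 0.441 and 1.194 CPM in SH, against 0.357, 0.939 and 2.48 CPM in SS. Of the 10 tested markers on that list, 4 were higher, with a median of -0.02, or -0.42 with the excitatory covariate.

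The challenge in mice with a heroin history shares no library with these groups and was fitted on its own. Of 17941 genes, HH against HS had 0 edgeR calls (smallest adjusted p 0.216) and 686 genes at an unadjusted p under 0.05 (3.82%), 309 higher (1.72%) and 377 lower (2.1%). Whatever their p, 8928 of the 17941 genes were higher in HH. DESeq2 called 3 genes (0.0167%): Nr4a3, Fosl2 and Dnajb1, all higher in HH. HS mouse 11 had the lowest rank correlation of the 32 libraries (0.973) and an excitatory score of 3.93. Without it 517 of 18140 genes (2.85%) had an unadjusted p under 0.05 and the smallest edgeR adjusted p was 0.549. Of 16 excitatory markers, 9 were higher in HH than in HS, 0 had an unadjusted p under 0.05, and the median was 0.00. Without HS mouse 11, 12 of 16 were higher, 0 at that level, with a median of 0.17. HH mice 7 and 5 had the highest excitatory scores of HH (3.73 and 3.53). They also had the highest mean log2 CPM over the immediate early list (4.94 and 4.66). No covariate was fitted for HH against HS, so the part of the excitatory markers there was not tested. Of all genes tested in both comparisons 61.3% had the same sign, against 69.4% of the 1020 with an unadjusted p under 0.05 in SH against SS. With signs and p-values of SH against SS from the fit with the excitatory covariate, the share was 73.0% of 930 genes. The share over all genes was not computed for that fit.

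Nr4a3 had 31.9, 40.1 and 60.8 CPM in HH, against 22.4, 25.8 and 33.4 CPM in HS. Only HH mouse 25 lay within the HS range. The log2 difference was 0.60 ± 0.109 (edgeR adjusted p = 0.216, DESeq2 adjusted p = 0.000853), beside 0.52 in mice without a history. Without HS mouse 11 it was 0.60 ± 0.115 (edgeR adjusted p = 0.549). Fosl2 had 66.96, 96.16 and 135.3 CPM in HH, against 57.76, 68.01 and 85.03 CPM in HS (0.48, DESeq2 adjusted p = 0.0255). Dusp6 had 73.95, 91.91 and 116.75 CPM in HH, against 46.93, 72.7 and 102.97 CPM in HS (0.32, unadjusted p = 0.00797 with edgeR). Over the immediate early list, 35 of 40 were higher in HH, 13 at an unadjusted p under 0.05 and 0 lower, with a median of 0.11. Nr4a1, Arc, Junb and Fosb, with 0.57, 0.37, 0.27 and 0.26, were among the 13.

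Rgs2 had 197.4, 224.8 and 244.8 CPM in HH, against 123.2, 186.2 and 207.8 CPM in HS, higher than the HS mean in 8 of 8 (0.31 ± 0.0798, unadjusted p = 0.000816 with edgeR). Acer2 had 12.5, 15.3 and 22.1 CPM in HH, against 15.9, 19.0 and 31.0 CPM in HS, and differed by -0.39 ± 0.137. Osmr and Il1r1 differed by -0.12 ± 0.10 and 0.03 ± 0.125 after a heroin history, beside -0.50 and -0.47 without one. Lcn2 differed by 0.21 ± 0.26, beside -0.81. Mfsd4a differed by 0.16 ± 0.0795, beside 0.42. Of the 12 leading lower genes 9 had the same sign in HH against HS, 2 at an unadjusted p under 0.05 (Acer2, Prelid3a); of the 12 leading higher ones 8 did, 0 at that level.

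Heat shock genes, which code for chaperones of misfolded protein, are given for both histories. In HH, 23 of 26 were higher than in HS, 14 at an unadjusted p under 0.05, with a median of 0.19, or 23 and 11 with a median of 0.15 without HS mouse 11. Dnajb1, the HSP40 co-chaperone of HSP70, had 72.8, 89.03 and 109.7 CPM in HH, against 53.6, 70.2 and 79.3 CPM in HS, and 73.8, 84.4 and 94.2 CPM in SH, against 70.9, 75.5 and 99.2 CPM in SS. Hspa1a, an inducible HSP70, differed by 1.00 in HH against HS and by 0.28 in SH against SS. Endothelial and mural markers were higher in 0 of 16 in HH, with 7 lower at an unadjusted p under 0.05 and a median of -0.24.

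**Figure D4:**
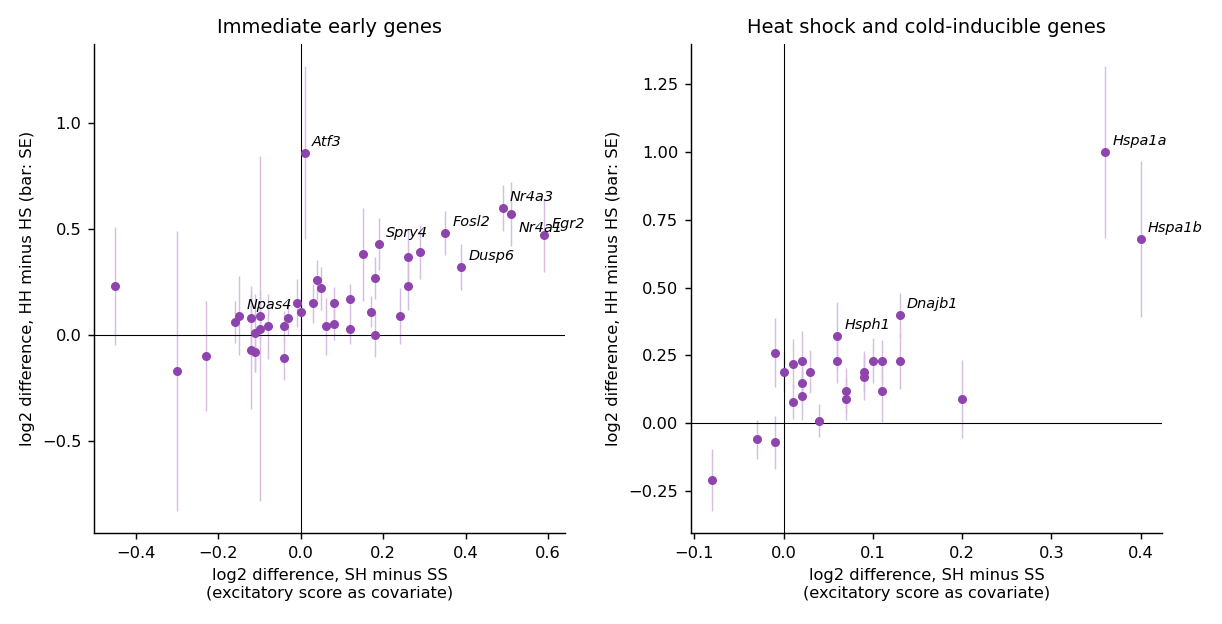
Log2 difference HH minus HS (vertical axis, bars are SE) against SH minus SS with the excitatory score as covariate (horizontal axis) for immediate early genes (left) and heat shock genes (right), 1 point per gene. Nr4a3, Fosl2, Dusp6, Nr4a1 and Egr2 lie to the upper right, and Hspa1a and Hspa1b lie highest among the heat shock genes.

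The difference between the 2 challenge responses was tested directly as (HH minus HS) minus (SH minus SS). It gave 0 edgeR calls and 532 genes at an unadjusted p under 0.05 (2.73%), and DESeq2 gave 0 calls. Unadjusted p-values of this test with edgeR were 0.633 for Nr4a3, 0.373 for Rgs2, 0.236 for Acer2, 0.0168 for Osmr, 0.0135 for Il1r1, 0.00877 for Lcn2 and 0.0356 for Mfsd4a. Adjusted over all genes none of these passed. No difference between the histories was therefore shown for any gene.

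The response of the dorsal striatum was set against that of NAc (nucleus accumbens) and PFC (prefrontal cortex) in the same 16 mice. SH against SS gave 1 edgeR call in NAc (0.00506% of genes) and 3 in PFC (0.015%). Acer2 was called in both: it differed by -0.64 ± 0.143 in dStri, -0.82 ± 0.145 in NAc (adjusted p = 0.035) and -1.10 ± 0.165 in PFC (adjusted p = 0.00126). Osmr differed by -0.50, -0.52 and -0.58 in dStri, NAc and PFC, Il1r1 by -0.47, -0.57 and -0.76, and Lcn2 by -0.81, -1.01 and -1.55. Nr4a3 differed by 0.52, 0.65 and 0.32. Dio2, called in PFC (adjusted p = 0.011), differed by 0.28, 0.53 and 0.54. Of the 12 leading lower genes, 11 had the same sign in NAc and 12 in PFC, with 5 at an unadjusted p under 0.05 in each, where 2.04% of all genes in NAc and 2.96% in PFC were lower at that level. Of the 12 leading higher ones, 12 had it in NAc and 8 in PFC, with 6 and 0 at that level, where 1.35% of all genes in NAc and 2.64% in PFC were higher. The excitatory markers were higher in 14 of 17 in NAc as well, with a median of 0.61, and their part in these 12 genes was not tested there. The share of all genes with the same sign in dStri and in NAc or PFC was not computed. Both sets of 12 were picked by their p in dStri of the same 16 mice, so the other regions are not independent samples.

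Markers of other cell types also differed in these regions. In PFC, meningeal markers were higher in SH in 0 of 14, with 11 lower at an unadjusted p under 0.05 and a median log2 difference of -0.81. Oligodendrocyte markers there were higher in 0 of 15, with 11 lower at that level and a median of -0.53, and endothelial and mural markers in 2 of 16, with 7 lower and a median of -0.19. In NAc, meningeal markers were higher in 1 of 14 (median -0.50) and endothelial and mural markers in 1 of 16 (median -0.11), while in dStri the meningeal markers were higher in 5 of 14 (median -0.07). What part these markers have in the lower values of Osmr, Il1r1 and Lcn2 in NAc and PFC was not tested.

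Tests of the difference in response gave 0 edgeR calls for dStri minus NAc, with 566 genes at an unadjusted p under 0.05 (2.89%), and 0 for dStri minus PFC, with 1042 (5.24%). These fits held no term for the mouse, so their p-values treat both libraries of a mouse as independent. The smallest unadjusted p-values for dStri minus PFC among the named genes belonged to excitatory markers and the genes that followed them, such as Tbr1 (0.000138) and Neurod6 (0.000216). For Acer2 this test gave an unadjusted p of 0.338 against NAc and 0.0249 against PFC. Fosb differed by 0.05 in dStri and 0.52 in PFC (unadjusted p of the difference 0.00549, adjusted p = 0.776 with edgeR). Over the immediate early list, the members higher in SH numbered 27 of 40 in dStri, 33 in NAc and 37 in PFC. Of these, 5, 13 and 27 had an unadjusted p under 0.05. Of all genes tested, 9378 of 19756 were higher in SH in NAc and 9459 of 19976 in PFC. The lists were not compared by a test.

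**Figure D5:**
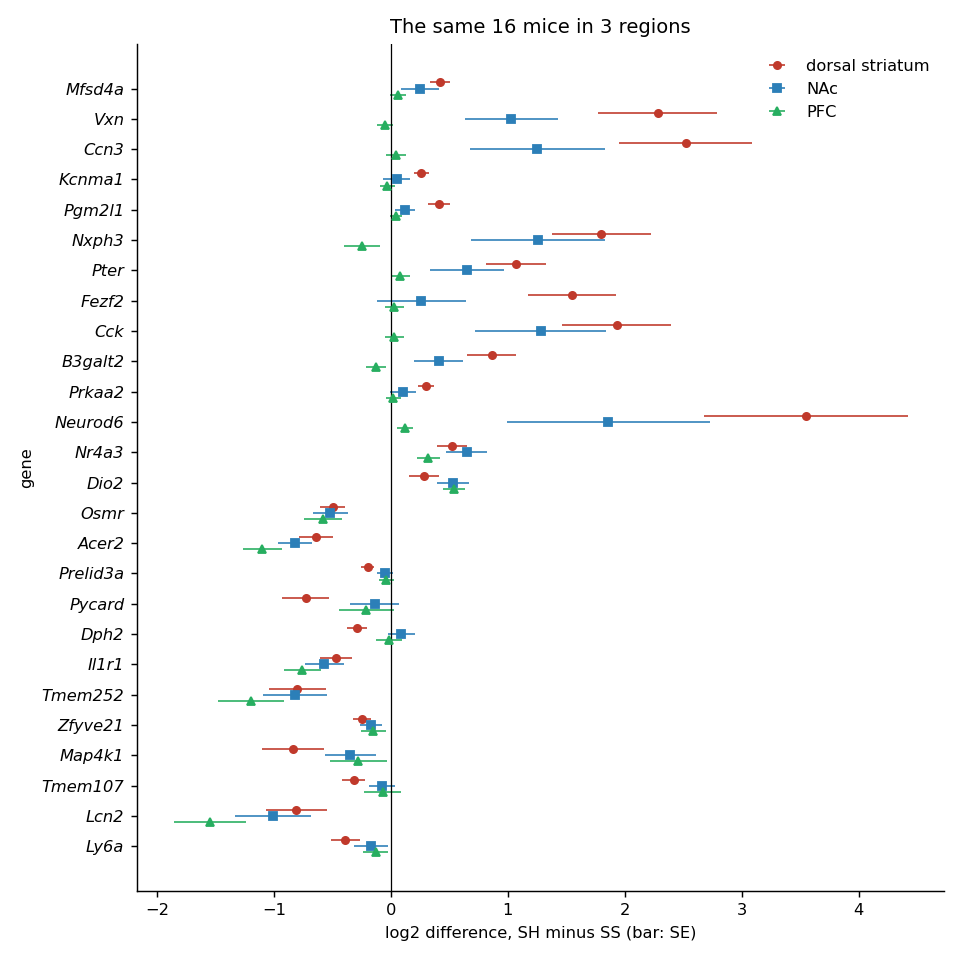
Log2 difference SH minus SS with its SE (horizontal axis) in dorsal striatum, NAc and PFC of the same 16 mice for the 12 leading higher and 12 leading lower genes, Nr4a3 and Dio2 (vertical axis). Vxn, Ccn3, Cck and Neurod6 differ widely in dStri and NAc but not in PFC, while Acer2, Osmr, Il1r1, Tmem252 and Lcn2 are negative in all 3 regions.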

How the data were processed

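Strand-specific libraries of total RNA without ribosomal RNA were read as 2 ends of 150 bp, per the labels' protocols. The submitters' processing notes name FastQC, HISAT2, SAMtools, HTSeq and build mm10; versions and annotation release are not given in the sources used here. Raw counts per Ensembl gene are as deposited by the authors. The authors' deposited size-factor scaled signal table of dStri was used only for the shares of reads outside genes (5.66% to 10.83% in SH, 6.77% to 12.14% in SS); 6 other files were not used, and 0 value columns lacked a sample. Symbols and gene spans are from GENCODE M21 (GRCm38, that is mm10), which named 52403 of 52636 genes.

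Genes were kept by edgeR's filter by group at a minimum count of 10. It asks for a CPM equal to about 10 counts in as many libraries, of any group, as the smallest group holds. Kept genes were scaled by TMM and tested by quasi-likelihood F-tests (edgeR 4.0.16, R 4.3.3) over the 32 dStri libraries of SH, SS, HH and HS. The p-values were adjusted by Benjamini and Hochberg over all genes tested. HH against HS had a fit of its own, and region differences were fitted on 32 libraries of the same 16 mice without a term for the mouse. A gene was called at an adjusted p under 0.05. Log2 CPM values carry a prior count of 1. DESeq2 1.42.0 and limma 3.58.1 were alternatives. Same-numbered libraries come from the same mouse; their deviations from the group means correlated between dStri and NAc with a median of 0.06 and between dStri and PFC with a median of -0.013.

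Named genes were 12 in each direction by smallest p among those with at least 1 CPM, up to 3 per process list, those DESeq2 called, and 20 set genes; Fosl2, Dusp6, Egr2, Dnajb1, Hspa1a, Pthlh, Crhr2 and single list members given with a log2 value were named after their values were seen. The 15 process and 19 marker lists held 591 genes, 589 of them in the table and 565 tested. Members, lists and tests were chosen with earlier results of these data known. Lists were described and not tested. Per gene, the 56 pairs of libraries within groups had a chi-square per degree of freedom of at least 11.0, so libraries of a group differed beyond counting noise. Promoter sequences are from RefSeq.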

Additional observations from a re-analysis of the deposited data

Results flagged for a closer look

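In SS mouse 22, 2 genes stood away from the rest of their group by Dixon's criterion. Vxn was at 5.10 log2 CPM there, against 3.51 to 4.14 in the other 7 SS libraries, a gap of 0.605 of the range, above the limit for 8 samples. Ccn3 was at 2.90 log2 CPM there, against 0.62 to 1.69 in the others, a gap of 0.528. The check covered 56 groups of 8 libraries, and chance gives a flag in about 1 of 20. SS mouse 22 also had the highest excitatory marker score of the SS group, 3.29.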

How the results depend on the processing

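Counts of calls by edgeR for SH against SS in dStri stayed at 0 under all settings, and 3 genes were called by DESeq2, as for HH against HS (3). Genes at an unadjusted p under 0.05 numbered 1077 of 19492 (5.53%), against 2856 of 38336 without the filter on low counts. They numbered 566 of 18440 within mouse set 1 and 622 of 18192 within mouse set 2. Without the 5 libraries over 3 in excitatory score they numbered 452 of 20767 (2.18%). These settings differ in the mice or the genes tested, and why the counts moved was not tested. The settings without libraries over 3 and without libraries over 4 were added after seeing the data. So was the share of reads outside genes as covariate (890 genes). Leaving out 1 library at a time gave 0 calls and 844 to 1461 such genes. Across 33 settings, 853 of 858 values of 26 named genes kept their sign and side of the threshold, and 3 passed with DESeq2. The main fit called 0 genes, so keeping the side meant staying uncalled. The 26 include the 12 leading genes of each direction, picked by their p, and 16 settings leave out 1 library. A difference that shrank but kept its sign counted as kept. This count thus describes the values and tests nothing. Without the 5 libraries over 3, Pter differed by -0.01 and Fezf2 by -0.11, the reverse of the values with them. With the excitatory score as covariate, members higher numbered 11 of 20 for dopamine signalling and 11 of 15 for projection neurons. They numbered 4 of 6 for D2 neurons, 4 of 8 for cholinergic interneurons and 1 of 6 for dopamine neurons. For microglia, endothelium and meninges they numbered 11 of 15, 8 of 17 and 3 of 14. The cause was not tested. Excitatory neurons had 10 of 17, where the covariate is the list's own mean and the change was built in.

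Pairing by mouse, as a replicate block, gave 0 calls and 555 genes at an unadjusted p under 0.05 for dStri minus NAc (566 without) and 0 and 953 for dStri minus PFC (1042 without).

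With 8 mice a group and a spread between mice above counting noise, log2 differences of the size seen in Nr4a3 (0.52) and Acer2 (-0.64) did not pass with edgeR over 19492 genes; DESeq2 called Acer2. The 3 highest excitatory scores were all in SH libraries, while other SH libraries went down to 1.98 and SS mouse 22 had 3.29. Within those 3 libraries the score and the heroin challenge cannot be told apart. Whether the challenge has a part in their scores was not tested.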
